A study of Mus musculus with 2 samples.

Results

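Subcluster 5 of the tumour-infiltrating cells profiled here is a set of CD8 T cells that carry the transcripts of exhaustion. They hold fewer transcripts of cell division than subcluster 8, a set compared below, but more than most other subclusters. The members of subcluster 5 are the cells to which the deposited annotation gives the number 5 at clustering resolution 0.8, and they numbered 449 of 5976 cells in all. The study collected CD45-positive, JAML-positive cells from mouse tumours in 1 droplet gene expression library, with antibody hashtags that separate 3 mice. CD45 marks blood-derived cells. JAML, short for junctional adhesion molecule-like, can costimulate T cells when it binds the protein encoded by Cxadr. The names of the hashtags give all 3 mice as bearing B16F10, a mouse melanoma line, and as isotype control I, II and III, meaning an antibody with no target of interest. There was therefore 1 experimental group of 3 mice and no treated group, and strain, sex and age were not given in the sources used here. T cells are named as the sorted cells in one label and TREG in another, whereas transcripts of plasmacytoid, conventional dendritic and macrophage-like cells were present among the other cells. All cells came from 1 gene expression library, so no barcode could stand for cells of different gene expression libraries.

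T cells that meet antigen for a long time, as in a tumour, can enter a state called exhaustion. Such cells keep inhibitory receptors such as PD-1 (encoded by Pdcd1), LAG-3 and TIM-3 (Havcr2) on their surface, and the transcription factor TOX maintains the state. A smaller pool of progenitor-like exhausted cells keeps the factor TCF-1 (Tcf7) and the surface protein Slamf6, and its progeny gain killing molecules such as perforin and granzymes while they lose TCF-1.

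Of the 449 cells, 446 had a hashtag: 315 in mouse 1, 92 in mouse 2 and 39 in mouse 3. The subcluster made up 12.9% of the cells of mouse 1, 7.77% in mouse 2 and 1.67% in mouse 3, a mean of 7.44 ± 5.62% (SD, n = 3). Pooled, its share was 7.51% (95% exact Clopper-Pearson interval 6.86 to 8.21%, which covers counting error only). The share differed widely between the 3 mice and was lowest in mouse 3. The deposited coarser clustering placed 446 of the 449 cells in the cluster named after Pdcd1 and 3 in the cluster named after Cd3g. Depth was high: the median was 21009 unique molecular identifiers (UMIs, 1 per captured RNA molecule) per cell, against 14073.5 in all other cells. The summed UMIs were 6888144 in mouse 1, 2336237 in mouse 2 and 866254 in mouse 3, so values of mouse 3 are the least precise.

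The members were compared with 3 sets of cells from the same mouse. All other cells (5522 with a hashtag) include the other lineages. Subcluster 8 (327 cells, median 27482 UMIs) holds most of the rest of the Pdcd1 cluster and carries division transcripts, and subclusters 1 and 7 (1136 cells with a hashtag, median 8639.5 UMIs) are T cells of the Cd3g cluster. A transcript gate for CD8 T cells (a Cd8a or Cd8b1 UMI, a Cd3 UMI and none of Cd4) was passed by 90.6 and 94.0% of the latter. For each mouse the UMIs of a class were summed and scaled to counts per 1000000 UMIs (CPM). A gene was counted as different where log2 of the ratio, with 1 CPM added to both sides, was at least 2-fold in the same direction in each of 3 mice, among genes with a mean of at least 20 CPM in the higher class. Because the subclusters were built from the same genes, these differences describe the cells and carry no p-value. An alternative left out every cell with at least 2 UMIs together of Cd79a, Lyz2, C1qa, Siglech and Xcr1, markers of other lineages. Values per gene are given for mouse 1, mouse 2 and mouse 3 in that order, with the mean log2 ratio ± SD over the 3 mice.

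Against all other cells, 219 of 6050 genes were higher (3.62%) and 718 were lower (11.9%). Against subcluster 8, 24 of 5615 were higher (0.427%) and 251 lower (4.47%). Against subclusters 1 and 7, 183 of 5715 were higher (3.20%) and 211 lower (3.69%). The median log2 ratio over all genes tested was 0.02, -0.01 and 0.01 in the 3 comparisons. Leaving out a mouse asks the rule of the remaining mice only, so counts tend to rise by construction. Without mouse 1, 52 genes were higher than in subcluster 8, and 351 were higher and 353 lower than in subclusters 1 and 7. Each was the largest count over the 3 omissions.

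The transcripts matched the CD8 T cell identity that the label gives. Cd8a, a chain of the CD8 coreceptor, stood at 756, 954 and 626 CPM, against 161, 166 and 211 in all other cells. The CD8 gate was passed by 429 of the 449 cells, or 95.5%. The summed level of the 16 genes of the T cell receptor complex was 8449 to 9154 CPM in the subcluster and 7800 to 8238 CPM in subcluster 8, against 10349 to 12267 CPM in subcluster 1 and 9607 to 11390 CPM in subcluster 7. Of those 16 genes, 8 were higher than in all other cells, among them Cd3e (601, 580.4 and 539 against 137, 147 and 242 CPM), and none passed the rule against subcluster 8 or subclusters 1 and 7. Against the latter, the median log2 ratio over the 16 genes was -0.43, and it was 0.01 over all genes tested.

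The 4 genes given as markers of these cells were all higher than in all other cells and than in subclusters 1 and 7. None of the 4 passed the rule against subcluster 8. They were given together with the subcluster, so their levels describe it and are no independent support for its name. Pdcd1, the gene of the inhibitory receptor PD-1, stood at 339, 340.3 and 367 CPM in the subcluster, 256, 199 and 131 CPM in subcluster 8, 120.1, 92.1 and 84.4 CPM in subclusters 1 and 7 and 53.9, 32.7 and 32.7 CPM in all other cells. All 3 mice of subcluster 5 lay above all 3 of each other set. Nrgn, which encodes the calmodulin-binding protein neurogranin, stood at 529, 653 and 516 CPM, against 44.2, 2.97 and 3.63 CPM in subclusters 1 and 7. Rgs16, which shortens G protein signals, stood at 299, 360.4 and 222 CPM, against 70.4, 8.32 and 9.01 CPM there. In both genes mouse 1 of subclusters 1 and 7 was higher than the other two mice, and no mouse reached the levels of subcluster 5. Igfbp7, a secreted protein that binds insulin-like growth factors, stood at 52.1, 105 and 114 CPM, against 14.3, 75.6 and 39.8 CPM in subcluster 8, so the groups overlapped in that gene. Summed, the 4 markers came to 1218 to 1459 CPM in subcluster 5, 528 to 969 CPM in subcluster 8 and at most 292 CPM in subclusters 1 and 7.

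**Figure D1:**
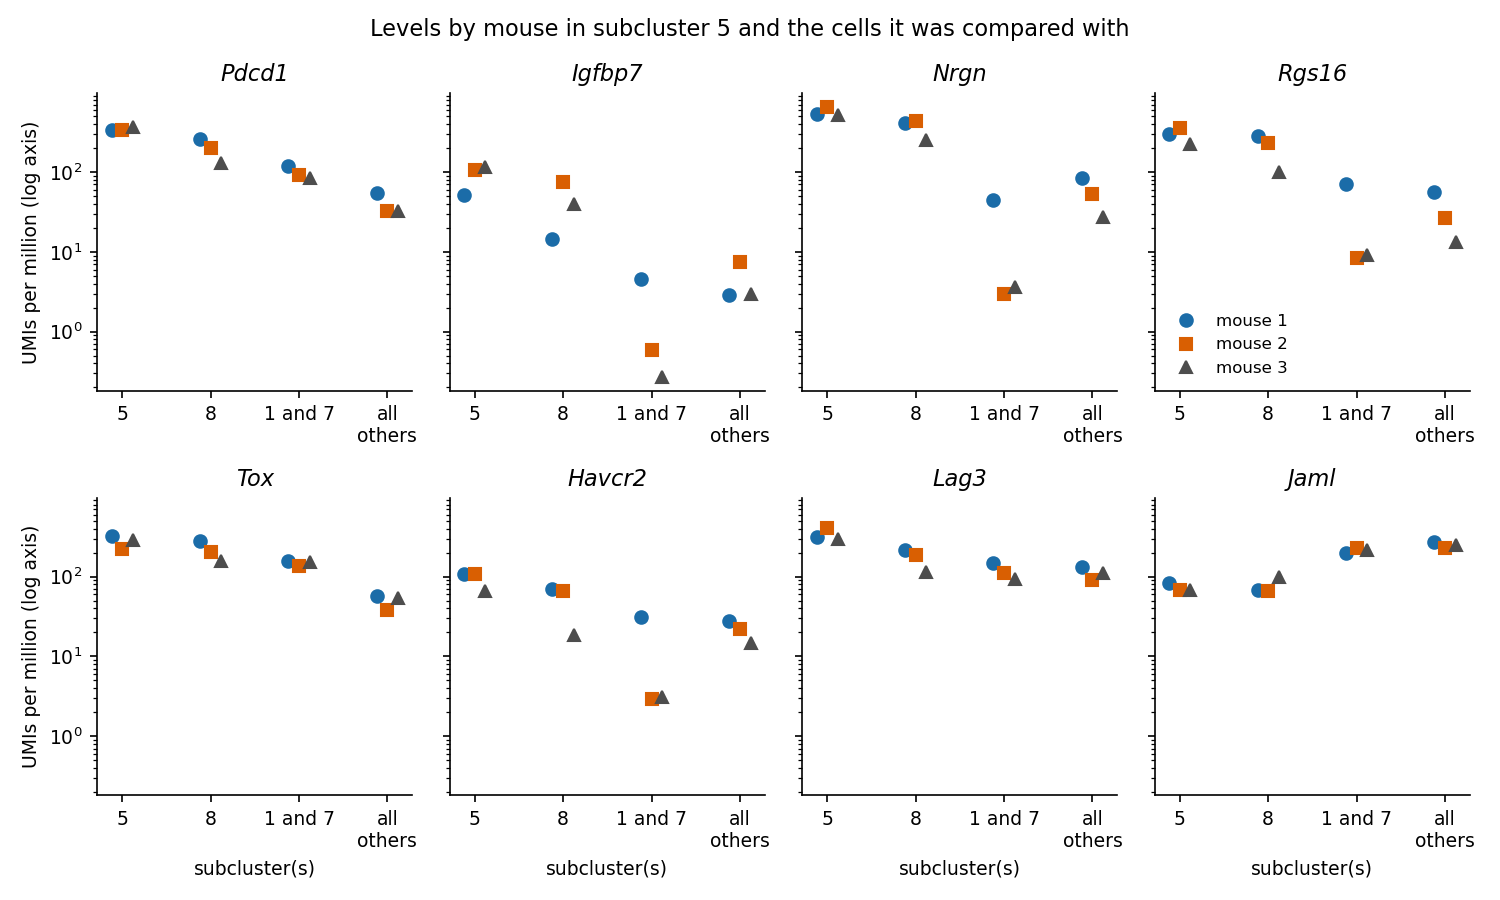
Levels of 8 genes in CPM (log axis) in subcluster 5, subcluster 8, subclusters 1 and 7 pooled, and all other cells; each point is the summed UMIs of 1 mouse. Pdcd1, Igfbp7, Nrgn and Rgs16 are highest in subcluster 5 in each mouse, whereas Jaml is lower there than in subclusters 1 and 7 and in all other cells in each mouse.

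The word non-dividing holds as a matter of degree. To compare cells of different depth, every cell was thinned at random to 7537 UMIs and shallower cells were left out. These were 4 of the 449, 0 of 327 in subcluster 8, 232 of 785 in subcluster 1 and 110 of 352 in subcluster 7. Thinned values of subclusters 1 and 7 thus describe their deeper cells only. The median thinned cell of subcluster 5 had 15 UMIs of G2 and M phase genes, against 92 in subcluster 8 and 13 in subclusters 1 and 7. Its S phase genes gave 9 UMIs, against 38 and 7. No UMI of the 5 core division genes Mki67, Top2a, Cdk1, Ube2c and Birc5 was found in 41.3% of thinned subcluster 5 cells, in 1.53% of subcluster 8 cells and in 67.5% of cells of subclusters 1 and 7. A small fraction carried several of these transcripts, since 5.84% of the cells had at least 5 core UMIs, against 83.5% in subcluster 8 and 1.01% in subclusters 1 and 7.

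The summed levels placed subcluster 5 between its neighbours. G2 and M phase genes summed to 2320 to 2911 CPM, against 13030 to 16013 CPM in subcluster 8 and 1706 to 1995 CPM in subclusters 1 and 7 taken singly. S phase genes summed to 1673 to 2685 CPM, against 4738 to 5200 and 733 to 1171 CPM. Neither list overlapped between the 3 sets. Against subcluster 8, 46 of 51 G2 and M phase genes tested were lower (median log2 ratio -3.40) and 14 of 41 S phase genes were lower (-1.15). Against subclusters 1 and 7, 4 of 22 G2 and M phase genes (median 0.79) and 9 of 33 S phase genes (1.18) were higher and none lower. Against all other cells, 5 of 33 S phase genes were higher and none lower (median 0.66). In that comparison 7 of 33 G2 and M phase genes were lower and none higher (-0.82). All other cells include subclusters 8, 11 and 14, whose G2 and M phase genes summed to at least 10524 CPM in each mouse drawn. In both lists, every mouse of subcluster 5 was above every mouse of all subclusters except 8, 11 and 14. Top2a, the topoisomerase that untangles replicated DNA, stood at 59.7, 89.9 and 62.3 CPM, against 759.8, 673 and 874 CPM in subcluster 8. Cenpf, a kinetochore protein, stood at 5.66, 5.99 and 1.15 CPM against 273, 277 and 437, and Plk1, a mitotic kinase, at 2.47, 3.85 and 1.15 CPM against 93.6, 89.1 and 96.4. Mcm5, part of the helicase loaded before replication, stood at 121, 125 and 73.9 CPM, between 188, 231 and 181 CPM in subcluster 8 and 27.98, 25.5 and 24.2 CPM in subclusters 1 and 7.

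**Figure D2:**
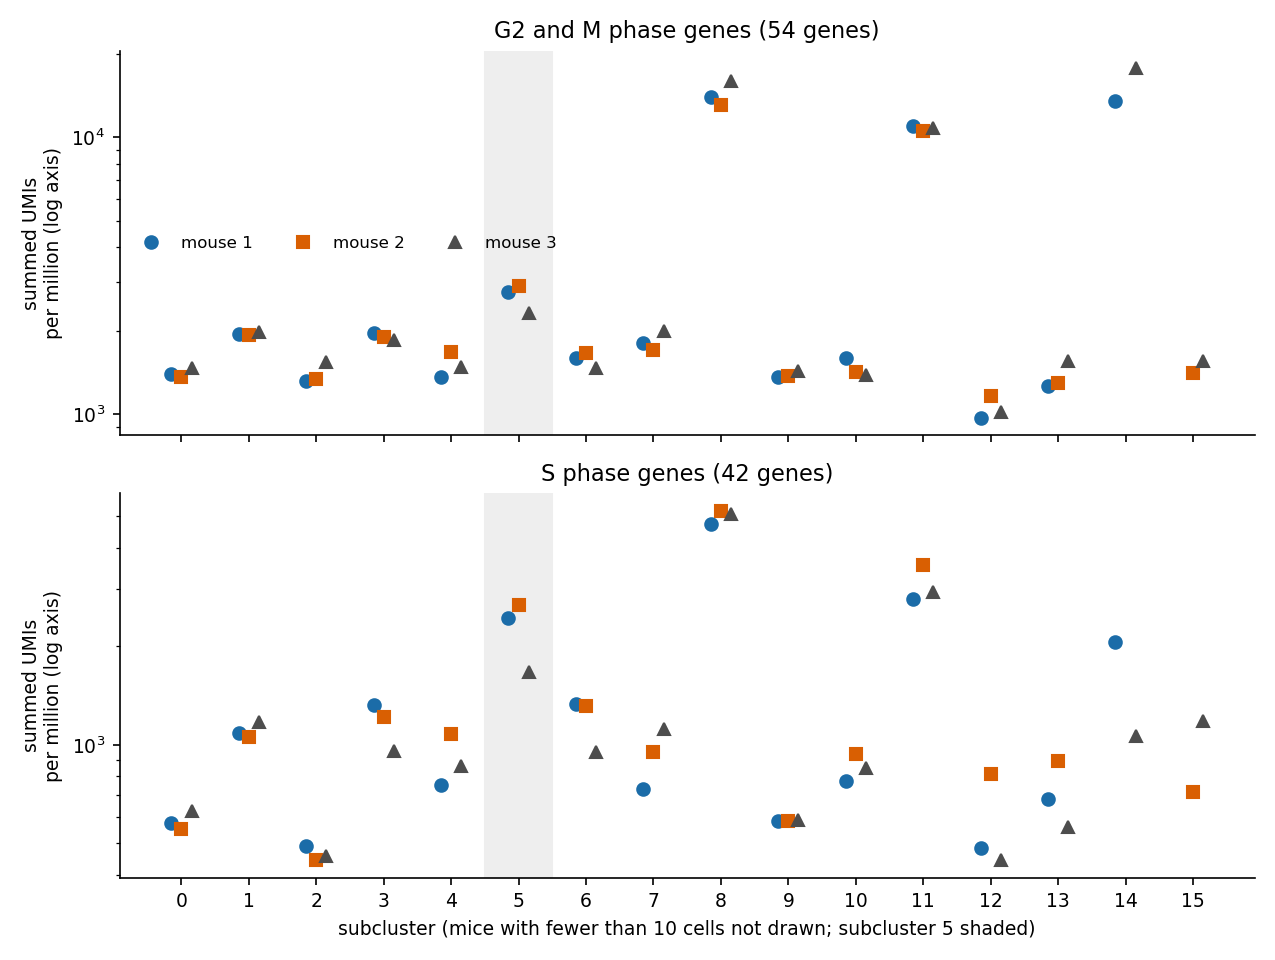
Summed CPM (log axis) of 54 G2 and M phase genes and 42 S phase genes in each of 16 subclusters; each point is 1 mouse, mice with fewer than 10 cells are not drawn and subcluster 5 is shaded. Subcluster 5 sits at 2320 to 2911 in the upper panel, far under subcluster 8 at 13030 to 16013, and at 1673 to 2685 in the lower panel.

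A pair of promoters of division genes that were lower than in subcluster 8 are shown with the letters TTTCAAA in capitals, which are TTTGAAA on the opposite strand, the sequence called CHR in many promoters of genes used in G2 and M phase. They are RefSeq sequence of GRCm38.p6 and cover the 120 bases before the start of Kif11 (chr19:37376262-37376381, plus strand), a motor of the spindle, and of Ckap2l (chr2:129297213-129297332, minus strand), a spindle-associated protein.
Kif11: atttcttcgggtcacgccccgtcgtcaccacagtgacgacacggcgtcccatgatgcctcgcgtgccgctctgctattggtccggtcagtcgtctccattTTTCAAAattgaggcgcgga
Ckap2l: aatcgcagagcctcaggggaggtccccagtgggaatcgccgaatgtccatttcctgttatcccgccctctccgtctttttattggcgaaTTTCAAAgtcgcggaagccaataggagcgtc
TTTGAAA on either strand was found in the 250 bases before the start of 23 of 182 genes lower than in subcluster 8 that had a promoter entry (12.6%), in 5.12% of 4475 tested genes with an entry and in 6.69% of all 27025 genes. The E2F letters TTTNGCGC were in 12 of the 182 (6.59%), in 3.31% of tested genes and in 1.31% of all genes. Kif11 stood at 9.73, 10.3 and 10.4 CPM in subcluster 5 and 188, 168 and 219.9 CPM in subcluster 8. Such matches describe letters in a window and do not show a bound site.

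Inhibitory receptors, the surface brakes that name the exhausted state, were the first group examined. Of 15 measured above the minimum, 6 were higher than in all other cells and 2 lower (median log2 ratio 0.81), and against subclusters 1 and 7, 5 of 13 were higher and 1 lower (1.43). Against subcluster 8, 1 of 12 was higher and none lower (0.67). Havcr2, which encodes TIM-3, stood at 108, 107 and 66.95 CPM, against 31.6, 2.97 and 3.09 CPM in subclusters 1 and 7 and 70.6, 66.02 and 18.4 CPM in subcluster 8. Lag3, whose protein binds class II molecules, stood at 316, 412 and 298 CPM, against 146, 112 and 92.8 and 214, 188 and 113 CPM. Subcluster 5 was above subcluster 8 in each mouse in both genes, but not 2-fold in every mouse. Cd200, a ligand that restrains myeloid cells, was the receptor-list gene higher than in subcluster 8, at 35.9, 88.6 and 46.2 against 13.03, 16.02 and 16.3 CPM, a call that was lost without cells that hold UMIs of other lineages. Not every brake separated the sets: Ctla4 stood at 139.95, 128 and 107 CPM against 110.1, 95.1 and 122 CPM in subclusters 1 and 7, with overlapping groups, and so did Cd160 at 139, 167 and 167 against 95.7, 257 and 204 CPM. Tigit was under the minimum, at 14.5, 12.8 and 15.01 CPM. Entpd1 was tested in all 3 comparisons and passed the rule in none. The genes lower than in all other cells were Lair1 and Btla, and the gene lower than in subclusters 1 and 7 was Nt5e.

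Among 22 transcription factors of activation and exhaustion, 6 were higher and 3 lower than in all other cells (median log2 ratio 0.98). Against subclusters 1 and 7, 4 of 21 were higher and none lower (0.70), and against subcluster 8 none of 19 differed in either direction (0.40). Tox, the factor that maintains exhaustion, stood at 319.97, 219 and 284 CPM, against 57.1, 38.2 and 53.3 CPM in all other cells. Subclusters 1 and 7 held 156, 135 and 152 CPM of Tox, so that the log2 ratio of 0.87 ± 0.17 did not pass the rule. Nr4a2, an orphan nuclear receptor induced by receptor signalling, stood at 198, 181 and 279 CPM against 61.4, 67.1 and 109 CPM in subclusters 1 and 7. Bhlhe40, a repressor used by resident and tumour T cells, stood at 388, 433 and 463 CPM against 172, 124 and 198. Irf8, a factor of dendritic cells that activated CD8 T cells also use, stood at 229.5, 332 and 248 CPM, above the 59.6, 47.5 and 37.4 CPM of subclusters 1 and 7 and below the 1104, 857 and 976 CPM of all other cells.

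Receptors of the tumour necrosis factor family, which costimulate T cells after activation, formed the next group. Together with other costimulators, 6 of 14 were higher and 1 lower than in all other cells, 1 of 14 was higher than in subcluster 8, and 3 of 14 were higher and 1 lower than in subclusters 1 and 7 (median log2 ratios 1.44, 0.39 and -0.04). Tnfrsf9, which encodes 4-1BB, stood at 487, 678 and 821 CPM, against 62.3, 37.4 and 9.95 CPM in subclusters 1 and 7. Tnfrsf4, which encodes OX40, stood at 151, 277 and 331 against 31.6, 46.9 and 3.90 CPM. In both genes the lowest mouse of subcluster 5 was above the highest mouse of subclusters 1 and 7. Crtam, an adhesion receptor of activated CD8 T cells, was the gene of this group higher in all 3 comparisons, at 49.1, 112 and 94.7 CPM against 18.8, 41.02 and 22.96 CPM in subcluster 8.

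Jaml, the receptor used for sorting, was the gene of the costimulatory group that was lower. It stood at 82.6, 68.5 and 68.1 CPM in subcluster 5, 199, 228 and 218 CPM in subclusters 1 and 7 (log2 ratio -1.55 ± 0.25) and 269.9, 228 and 247 CPM in all other cells (-1.75 ± 0.08). Every mouse of subcluster 5 was below every mouse of those sets. Subcluster 8, at 68.4, 66.7 and 98.5 CPM, was close, with groups that overlapped. Over the 16 subclusters, subcluster 5 had the lowest mean level, 73.1 ± 8.26 CPM (SD, n = 3), next to subcluster 8 at 77.9 ± 17.9, which did not differ beyond its spread, and subcluster 15 had the highest at 651 ± 102 CPM (n = 2 mice). In thinned cells a Jaml UMI was found in 38.0% of subcluster 5, 41.6% of subcluster 8, 68.9% of subclusters 1 and 7 and 94.3% of the plasmacytoid subcluster 0. Jaml lies on chromosome 9 from 45079183 to 45108534 on the plus strand of GRCm38. In the macrophage-like subcluster 2, also sorted as JAML-positive, a Jaml UMI was found in 43.7% of thinned cells. Free RNA can add UMIs to cells that do not express a gene. The part of free RNA in any of these shares was not tested. Cxadr, the gene of the JAML ligand, had UMIs in 5 of the 449 cells.

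Perforin was higher in subcluster 5 than in every compared set, and the other genes of the killing machinery differed by member. Of 18 cytotoxic granule genes, 9 were higher and 1 lower than in all other cells (median log2 ratio 1.78), 4 were higher and none lower than in subcluster 8 (0.62), and 8 were higher and 1 lower than in subclusters 1 and 7 (1.05). Prf1, which encodes the pore-forming protein perforin, stood at 569, 1007 and 847 CPM, against 279, 357 and 275 CPM in subcluster 8 (1.38 ± 0.31), 91.2, 59.4 and 98.3 CPM in subclusters 1 and 7 (3.26 ± 0.73) and 78.5, 57.1 and 55.3 CPM in all other cells. The lowest mouse of subcluster 5 was above the highest mouse of each of these sets. Against subcluster 8 the ratio in mouse 1 was just past 2-fold, and the call was lost with TMM scaling (1.37) or with the mean of each cell's own CPM (1.52). Prf1 UMIs were found in 293 of 315, 80 of 92 and 34 of 39 cells. Gzmb, the granzyme that cuts caspases in target cells, stood at 1017, 1288 and 742 CPM, above all other cells (212, 122 and 287). It overlapped with subclusters 1 and 7 at 494, 214 and 821 CPM and with subcluster 8 at 682, 699.9 and 746 CPM. Nkg7, a granule membrane protein, stood at 2511, 2399 and 2076 CPM and did not separate from subclusters 1 and 7 at 1875, 2391 and 2869 CPM.

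Granzymes C to F, close relatives of Gzmb, made up much of the list of largest ratios but came from few cells. With Gzmb they occupy 144.6 kb of chromosome 14, from 56117626 to 56262260 on the minus strand of GRCm38. The 120 bases before the start of each, RefSeq sequence of GRCm38.p6 on the minus strand, show how alike these neighbours are; capitals mark the longest run that all 4 share, 20 bases. Gzmc covers chr14:56234658-56234777, Gzmd chr14:56132594-56132713, Gzme chr14:56120626-56120745 and Gzmf chr14:56211408-56211527.
Gzmc: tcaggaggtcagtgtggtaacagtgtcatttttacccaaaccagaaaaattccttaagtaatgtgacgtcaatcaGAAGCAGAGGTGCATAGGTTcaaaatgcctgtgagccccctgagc
Gzmd: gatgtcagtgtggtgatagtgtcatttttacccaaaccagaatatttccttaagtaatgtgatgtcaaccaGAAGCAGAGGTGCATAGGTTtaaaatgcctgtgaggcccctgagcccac
Gzme: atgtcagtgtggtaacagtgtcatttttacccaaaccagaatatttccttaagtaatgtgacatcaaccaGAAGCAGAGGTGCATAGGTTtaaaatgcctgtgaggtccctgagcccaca
Gzmf: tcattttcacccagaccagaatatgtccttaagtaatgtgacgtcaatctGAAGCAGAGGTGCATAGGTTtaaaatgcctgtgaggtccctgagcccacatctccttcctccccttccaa
The transcripts of Gzmd, Gzme and Gzmf are alike too, with 90.4% identity between Gzmd and Gzme, 84.7% between Gzme and Gzmf and 83.3% between Gzmd and Gzmf, whereas Gzmc shares 70.3 to 71.4% with each. Reads of Gzmd, Gzme and Gzmf could have been split between them or lost, so their single levels are uncertain.

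Gzmc stood at 141, 1174 and 212 CPM in subcluster 5 and at 44.2, 4.16 and 5.65 CPM in subclusters 1 and 7. Gzmf stood at 49.7, 514 and 220.5 CPM, Gzme at 11.5, 226 and 152 CPM and Gzmd at 1.60, 251 and 246 CPM. In each of the 4 genes mouse 1 was lowest and mouse 2 highest. Gzmd UMIs lay in 5, 7 and 2 cells of the 3 mice, Gzme UMIs in 11, 9 and 2 cells and Gzmf UMIs in 21, 11 and 3 cells, so a handful of cells set the levels of a mouse. Of the 14 cells with Gzmd UMIs, 13 also had Gzme UMIs. Against subcluster 8, Gzmd, Gzme and Gzmf passed the rule, and Gzmd was at 0 there in mice 1 and 3 and Gzme at 0 in mouse 3. Without cells that hold UMIs of other lineages those 3 calls were lost. Serpinb9b, a serine protease inhibitor, was uneven too, at 28.7, 199 and 54.3 CPM, with UMIs in 20, 20 and 6 cells.

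**Figure D3:**
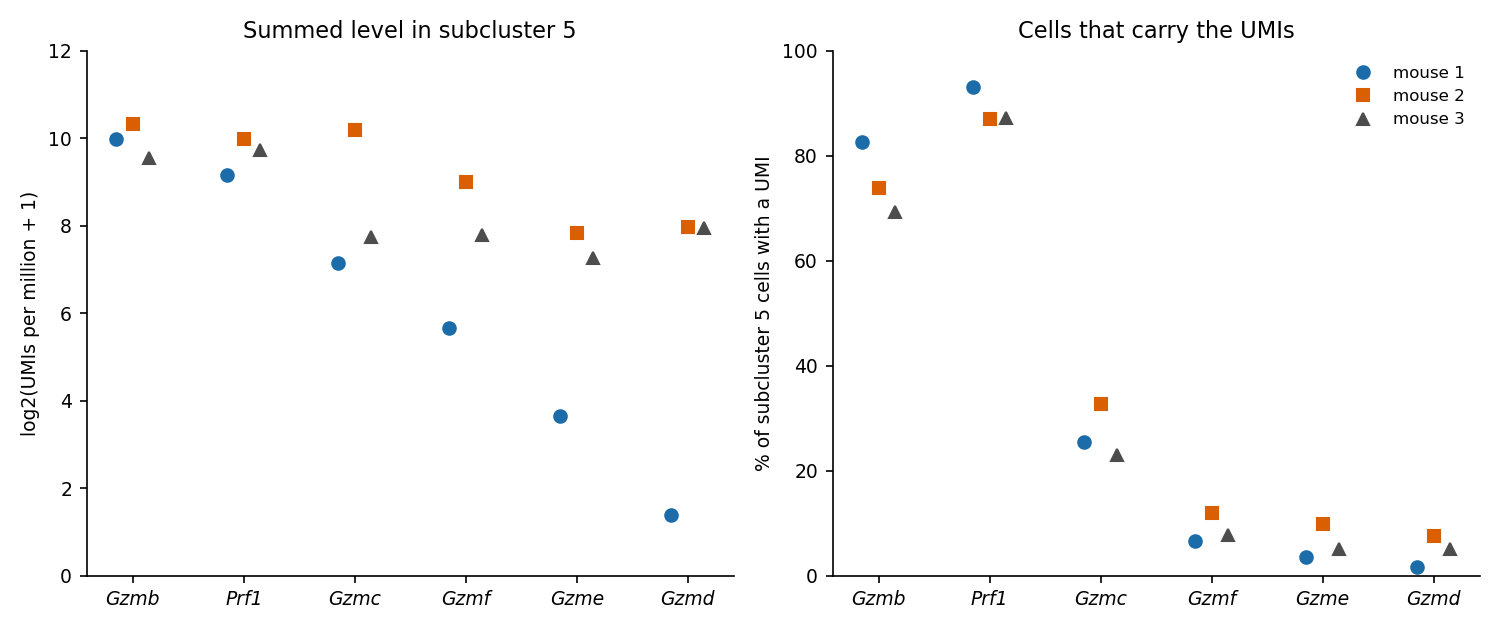
Left, log2 of CPM plus 1 for 6 cytotoxic granule genes in subcluster 5; right, the percent of subcluster 5 cells with at least 1 UMI of each; each point is 1 mouse. Gzmb and Prf1 UMIs lie in 69.2 to 93.0% of cells, whereas Gzmd, Gzme and Gzmf UMIs lie in 1.59 to 12% of cells.

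Of 14 cytokines and chemokines, 7 were higher and none lower than in subclusters 1 and 7 (median log2 ratio 2.50). Against all other cells 6 of 16 were higher and 2 lower (1.27), and against subcluster 8 2 of 13 were higher, Ccl1 and Ccl9, and none lower (0.93). Xcl1, which attracts the conventional type 1 dendritic cells that carry its receptor, stood at 583, 1318 and 3097 CPM, against 89.4, 79.6 and 33.6 CPM in subclusters 1 and 7. Mouse 3 was highest. Spp1, which encodes the secreted protein osteopontin, stood at 116, 1228 and 633 CPM against 7.22, 4.75 and 4.97 CPM, with UMIs in 22.2, 58.7 and 53.8% of the cells. Ccl3, an inflammatory chemokine, stood at 1546, 1311 and 786 CPM against 184, 67.7 and 141 CPM, and Ccl1, the ligand of CCR8, at 119, 385 and 204 CPM against 3.61, 6.53 and 2.69. Csf2, which encodes the growth factor GM-CSF, was low but distinct, at 40.4, 23.1 and 48.5 CPM against 0.903, 1.19 and 1.08. Ifng, the gene of interferon gamma, stood at 529, 577 and 337 CPM against 72.5, 46.6 and 77.03 CPM in all other cells, and its ratio to subclusters 1 and 7 varied between mice (1.88 ± 1.20). Ccl5 went the other way without passing the rule, at 4613, 2019 and 2504 CPM against 6237, 9555 and 18414 CPM in subclusters 1 and 7.

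Genes of memory and of stem-like T cells were lower as a group than in subclusters 1 and 7, with 13 of 19 lower and 1 higher, Xcl1 (median log2 ratio -2.25). Against all other cells 6 of 18 were lower and 2 higher (-1.25), and none of 16 differed from subcluster 8 (-0.25). Tcf7, the gene of TCF-1, stood at 13.2, 13.7 and 31.2 CPM, against 149, 166 and 64.8 CPM. Il7r, the receptor chain through which interleukin 7 keeps memory cells alive, stood at 16.1, 17.5 and 26.6 CPM against 348, 271 and 60.5. Lef1, a partner of TCF-1, stood at 11.8, 10.3 and 3.46 CPM against 83.04, 77.8 and 82.3, and Klf2, a factor of circulating T cells, at 57.8, 58.2 and 85.4 CPM against 394, 413 and 451. Mouse 3 had the smallest gap in Tcf7 and Il7r. Slamf6 did not pass the rule, at 18.4, 23.1 and 27.7 CPM against 70.4, 80.8 and 50.01.

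Receptors that guide movement differed in both directions from subclusters 1 and 7, with 3 of 12 higher and 6 lower (median log2 ratio -1.24). S1pr1, which T cells need to leave tissue for the blood, stood at 2.61, 0.856 and 3.46 CPM against 75.8, 52.3 and 43.96. Cxcr3, a receptor for interferon-induced chemokines, stood at 41.5, 22.3 and 43.9 CPM against 236, 323 and 316 CPM. Cx3cr1, the fractalkine receptor, was higher, at 45.1, 74.9 and 49.6 against 8.12, 8.32 and 12.6 CPM. Cxcr6, the receptor for Cxcl16 that holds T cells in tissue, did not separate the CD8 sets, at 697, 549 and 416 CPM against 534, 427 and 552 CPM, and was above all other cells at 111, 87.6 and 162 CPM. Itgae, which encodes the residency integrin CD103, stood at 1.31, 1.28 and 1.15 CPM against 46.4, 45.5 and 45.5 CPM in all other cells. Itgae was under the minimum level in the comparisons with subcluster 8 and with subclusters 1 and 7. In thinned cells an Itgae UMI was found in 1.35% of subcluster 5, 3.36% of subcluster 8 and 5.79% of subclusters 1 and 7. In subcluster 6 the share was 76.6%, and Itgae is also on the list of type 1 dendritic cell markers. Of 10 residency genes, 3 were higher and 1 lower than in subclusters 1 and 7 (median 0.59).

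Interferon-induced genes were lower than in subclusters 1 and 7 in 22 of 38 tested and higher in none (median log2 ratio -1.43), and than in all other cells in 22 of 41 (-1.59). Against subcluster 8 none of 27 differed (-0.19). Ifit3, an antiviral protein induced by interferon, stood at 13.1, 8.99 and 11.5 CPM against 122, 165 and 149.8 CPM in subclusters 1 and 7. Reads of Ifit3 could be shared with its close copy Ifit3b. Isg15, a ubiquitin-like modifier, stood at 54.9, 39.4 and 20.8 CPM against 149, 219 and 179. The sequence from 194 to 75 bases before the start of Ifit3 (chr19:34583335-34583454, plus strand, RefSeq GRCm38.p6) is shown because it holds the letters of the interferon-stimulated response element (TTTC, any 2 bases and TTTC) in 2 places, marked in capitals.
Ifit3: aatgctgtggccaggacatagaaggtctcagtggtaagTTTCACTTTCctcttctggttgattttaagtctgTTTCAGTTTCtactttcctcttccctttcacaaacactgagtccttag
Those letters on either strand were in the 250 bases before the start of 22 of 160 genes lower than in subclusters 1 and 7 (13.8%), against 3.81% of 4562 tested genes and 3.46% of all genes. The NFAT letters TGGAAA were in 44 of 147 genes higher than in subclusters 1 and 7 (29.9%), in 40 of 160 lower (25.0%), in 17.2% of tested genes and in 20.9% of all genes. AP-1 (TGANTCA), NF-kB (GGG, any 2 bases and TTTCC), NBRE (AAAGGTCA) and TCF (CTTTGAT) letters were less frequent than the NFAT letters in both lists. In the higher and lower genes of that comparison, AP-1 letters were in 8.16 and 8.12%, against 4.78% of tested genes and 7.82% of all genes. NF-kB letters were in 8 of 147 higher genes (5.44%) and 2 of 160 lower genes (1.25%), against 1.67% of tested genes and 1.65% of all genes. NBRE letters were in 2.04 and 0.625%, against 1.16% of tested genes, and TCF letters in 2.04 and 3.75%, against 2.61%. For all genes these shares were 1.55 and 3.72%. The CHR and TCF letters overlap in TTTGA, and the NFAT letters on the opposite strand overlap the NF-kB letters in TTTCC.

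Other groups were examined in the same way. None of 33 oxidative phosphorylation genes passed the 2-fold rule in any of the 3 comparisons. Their median log2 ratio was 0.18 against all other cells, -0.03 against subcluster 8 and 0.40 against subclusters 1 and 7. Of 22 glycolysis and hypoxia genes, 3 were higher than in subclusters 1 and 7, Pgk1, Tpi1 and Ero1l, and none lower (median 0.77). Over all genes tested against subclusters 1 and 7 the median was 0.01. Among lectin-like receptors first known from natural killer cells, Klre1 stood at 196, 212 and 244 CPM against 18.96, 16.6 and 15.3 CPM in subclusters 1 and 7, and it was the one of 5 tested that passed. Klrd1, the CD94 chain that pairs with NKG2 receptors, stood at 966, 978 and 913 CPM against 473, 489 and 407, with a log2 ratio of 1.06 ± 0.09. Dusp4, a phosphatase that damps MAP kinase signalling, was higher in all 3 comparisons, at 23.4, 48.4 and 61.2 CPM against 10.5, 21.2 and 15.8 CPM in subcluster 8. Further genes with large ratios to all other cells included Nrn1, which encodes neuritin (97.7, 165 and 88.9 against 9.69, 7.47 and 1.90 CPM), Serpine2, a protease inhibitor (29.2, 89.5 and 115 against 3.21, 5.08 and 2.21 CPM), Gldc, a glycine-cleaving enzyme (37.02, 68.1 and 48.5 against 4.01, 3.46 and 1.18 CPM), and Slc16a11, a monocarboxylate transporter (50.4, 77.05 and 84.3 against 4.59, 4.68 and 0.933 CPM).

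**Figure D4:**
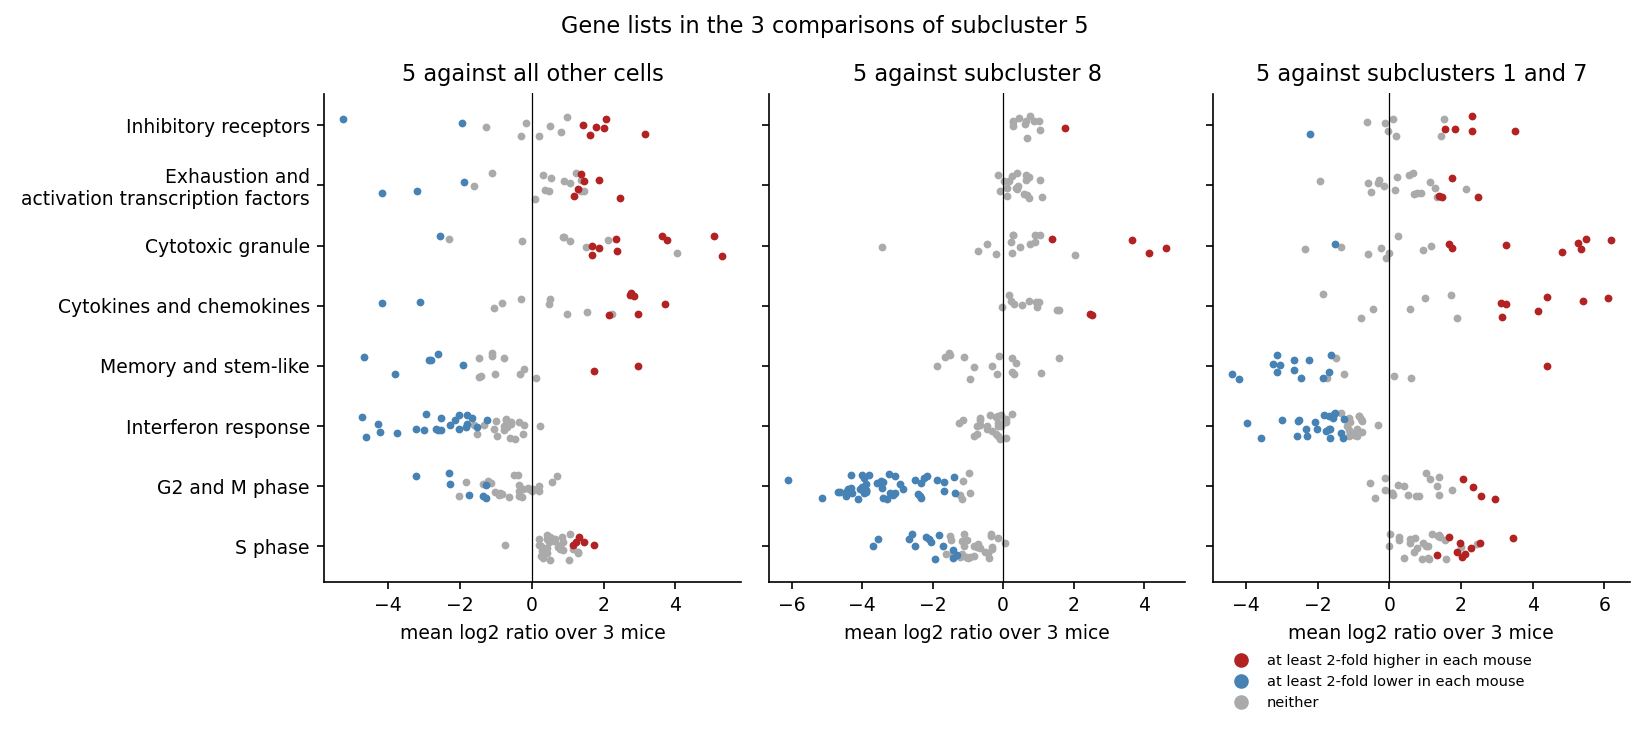
Mean log2 ratio over 3 mice of each tested gene in 8 lists, for subcluster 5 against all other cells, subcluster 8, and subclusters 1 and 7; coloured points were at least 2-fold higher or lower in each mouse. Interferon genes lie left of 0 against subclusters 1 and 7 (22 of 38 lower), and G2 and M phase genes lie left of 0 against subcluster 8 (46 of 51 lower).

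Markers of the other lineages in the sort were low in subcluster 5, and their part in the results was not tested. All 8 plasmacytoid dendritic cell markers, all 7 class II genes, all 5 tested type 1 dendritic cell markers and 11 of 12 tested macrophage and monocyte markers were lower than in all other cells. The 13 macrophage and monocyte markers summed to 1388 to 1567 CPM in subcluster 5, 1081 to 1957 CPM in subcluster 8 and 2034 to 3834 CPM in subclusters 1 and 7 taken singly. Class II genes summed to 656 to 1225, 682 to 916 and 849 to 3406 CPM in the same order. Melanocyte markers summed to 0 to 2.14 CPM, with Tyr at 0. Lyz2, an abundant macrophage transcript, stood at 71.7, 55.2 and 86.6 CPM against 62.8, 67.3 and 156 in subcluster 8 and 92.97, 81.4 and 140.1 CPM in subclusters 1 and 7. At least 2 UMIs of Cd79a, Lyz2, C1qa, Siglech and Xcr1 together were found in 221 of the 449 cells (49.2%), 164 of 327 cells of subcluster 8 (50.2%), and 20.4 and 24.1% of the shallower cells of subclusters 1 and 7. Without all such cells, which also removes most cells of the other lineages from the comparison, 65 genes were higher and 264 lower than in all other cells.

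The mice differed from each other inside subcluster 5 in few genes. Of 2895 genes with at least 50 CPM in the highest mouse, 14 differed at least 4-fold between the highest and the lowest mouse, and the median ratio was 1.22. The 14 included Gzmc, Gzmd, Gzme, Gzmf, Spp1 and Xcl1, and also Il1r2, a decoy receptor for interleukin 1, at 17.6, 98.02 and 15.01 CPM with mouse 2 highest. Receptor beta segments also differed: among cells in which 1 beta V segment could be read clearly, Trbv2 was read in 25 of 33 cells of mouse 2 and in 9 of 28 cells of mouse 1, while mouse 3 had 2 such cells. The V segments were read from gene counts, and no clonotypes were analysed here.

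A further 3 comparisons were made inside subcluster 5. Cells with at least 1 UMI of Havcr2, Tcf7 or Jaml were set against cells with none, after matching for total UMIs in each mouse, because a UMI is more often found in a deep cell. UMIs were summed per mouse and class and tested with edgeR's quasi-likelihood test with the mouse as a block and Benjamini-Hochberg adjustment over all genes tested. The 3 splits drew on the same cells, so they are not independent of each other. A cell without a UMI may still express the gene.

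Cells with a Havcr2 UMI carried more Prf1, Gzmb and Ccl3 and less Xcl1, Dapl1 and Tcf7. In 96, 29 and 13 cells per class, 142 of 6254 genes differed (2.27%), of which 79 were higher (1.26%) and 63 lower (1.01%). DESeq2 called 56, and without mouse 1 edgeR called 322. Of 16 cytotoxic granule genes 8 rose and none fell (median log2 difference 0.67); of the 8, 5 also passed with DESeq2 and 2 without the mouse block. Prf1 stood at 609.7, 1372 and 1229 CPM with and 214, 279.9 and 204 CPM without a Havcr2 UMI, a log2 difference of 2.03 ± 0.16 (SE, adjusted p = 2.44e-06). The classes did not overlap, and all 3 mice moved the same way. Gzmb stood at 1101, 1789.9 and 1104 against 560.02, 249 and 376 CPM (1.73 ± 0.23, adjusted p = 0.000477), although DESeq2 gave an adjusted p of 0.0537. Gzme passed the test from few cells, at 2.10, 415 and 318 against 1.61, 16.8 and 0 CPM, with mouse 1 nearly equal and an adjusted p of 0.383 with DESeq2.

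Of 13 cytokine and chemokine genes 5 rose and 3 fell (median log2 difference -0.11), so the group split by member. Ccl3 stood at 1624, 2737 and 1198 against 568, 487 and 131 CPM, a log2 difference of 2.21 ± 0.19 (adjusted p = 8.2e-06), and Ccl4, Ccl5, Ifng and Spp1 also rose, by 1.69, 1.53, 1.38 and 1.19. Xcl1 fell, from 1505, 3955 and 1811 CPM without to 143, 125 and 96.9 CPM with a Havcr2 UMI (-4.16 ± 0.22, adjusted p = 2.02e-08). Csf2 and Ccl1 fell too. Spp1 and Ccl1 did not pass in another draw of matched cells (adjusted p = 0.239 and 0.0895 by edgeR). In every mouse the Xcl1 level without a Havcr2 UMI was far above the level with one. Other genes that rose were AA467197, whose product is a small mitochondrial protein (1.96 ± 0.19, adjusted p = 3.66e-05), and S100a6, a calcium-binding protein (0.93 ± 0.10, adjusted p = 4.1e-05).

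Of 15 memory and stem-like genes 7 fell and 1, Ly6c2, rose (median log2 difference -1.26). Dapl1, a gene of naive and early memory CD8 T cells, stood at 157, 129 and 226 CPM without and 3.15, 1.44 and 0 CPM with a Havcr2 UMI (adjusted p = 2.02e-08). Tcf7 stood at 40.8, 44.8 and 73.03 CPM without and 2.62, 0 and 0 CPM with one (adjusted p = 4.1e-05). Slamf6 followed the same pattern at 40.8, 68.6 and 47.5 and 7.87, 1.44 and 0 CPM (adjusted p = 0.000474), and mouse 3 had no UMI of any of the 3 genes in the Havcr2 class. Emb, an adhesion protein and transporter partner, fell by 1.94 on the log2 scale, and Crtam fell by 2.58. Among 15 costimulatory genes 4 fell and none rose, and among 12 inhibitory receptors Cd244 and Entpd1 rose while Cd160 and Cd200 fell, of which only Cd160 also passed with DESeq2. Of 5 tested macrophage and monocyte markers 3 rose, of which Plac8 also passed with DESeq2, and their part in the other differences was not tested. Cxcr6 rose by 0.84 ± 0.13 (adjusted p = 0.00212).

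The genes that mark the whole subcluster did not pass the test in this split. Pdcd1 stood at 327, 392 and 419 CPM with and 341, 312 and 296 CPM without a Havcr2 UMI (log2 difference 0.19 ± 0.13, SE, adjusted p = 0.62 by edgeR). Tox stood at 351, 253 and 315 against 319, 168 and 212 CPM (0.36 ± 0.14, adjusted p = 0.244). Nrgn differed by -0.09 ± 0.16, Igfbp7 by -0.35 ± 0.24 and Rgs16 by 0.38 ± 0.16, with adjusted p of 0.883, 0.603 and 0.291. Jaml differed by -0.30 ± 0.21 (adjusted p = 0.608). No gene of the S phase list (35 tested) or the G2 and M phase list (22 tested) passed.

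**Figure D5:**
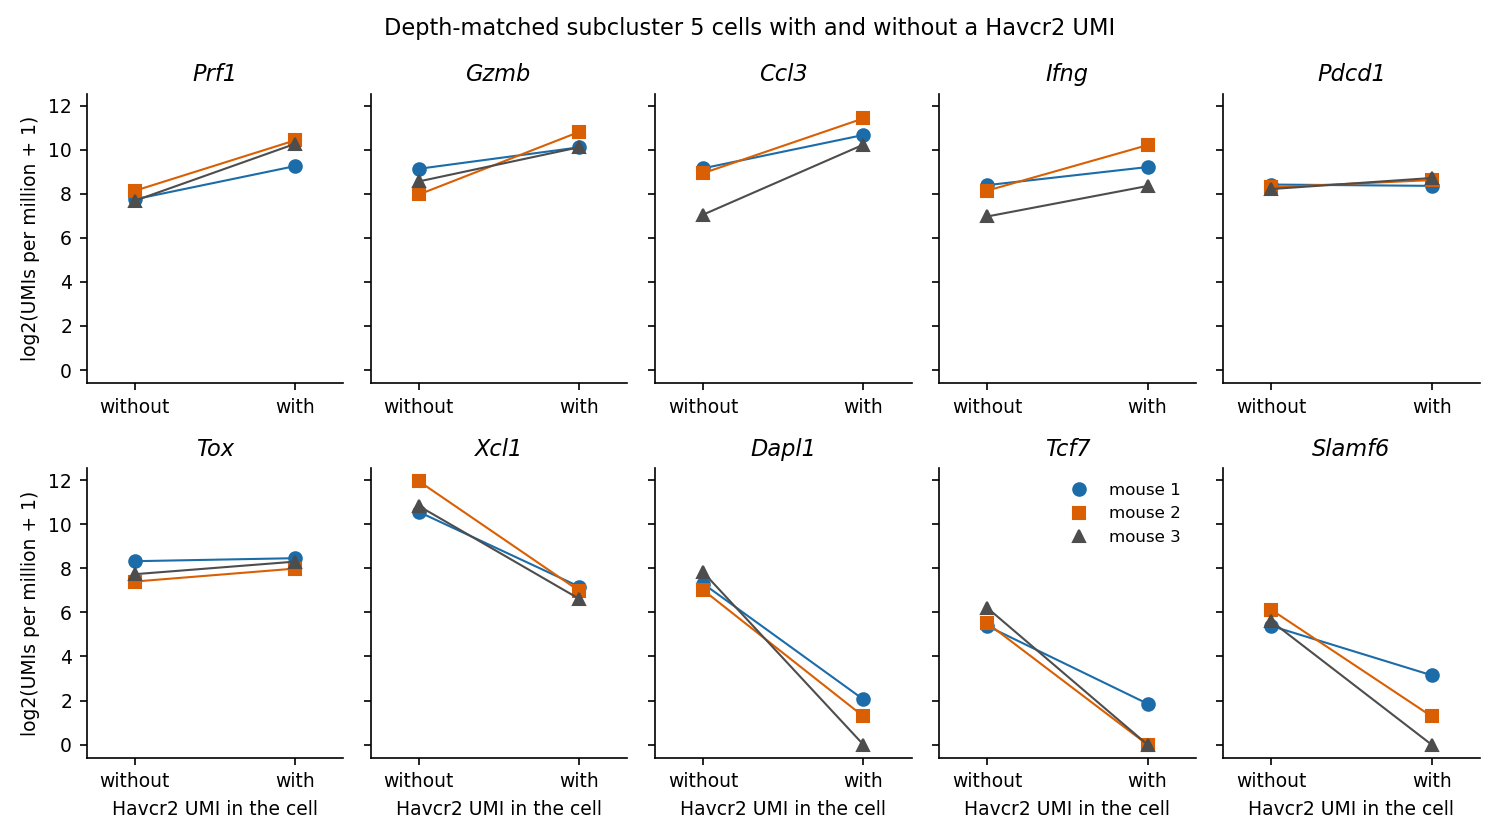
Log2 of CPM plus 1 for 10 genes in depth-matched subcluster 5 cells without and with a Havcr2 UMI; each line joins the 2 classes of 1 mouse. Prf1, Gzmb, Ccl3 and Ifng are higher with a Havcr2 UMI and Xcl1, Dapl1, Tcf7 and Slamf6 lower in 3 of 3 mice, while Pdcd1 and Tox did not pass the test.

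Cells with a Tcf7 UMI were few, 50 of the 449 (29, 11 and 9 in the 3 mice and 1 without a hashtag). The next shares are not matched for depth. Havcr2 UMIs were found in 6 of these 50 cells (12%) and in 294 of the 399 without a Tcf7 UMI (73.7%). Xcl1 UMIs were in 44 of 50 (88.0%) against 171 of 399 (42.9%), and Gzmb UMIs in 18 of 50 (36.0%) against 340 of 399 (85.2%). In each mouse the 3 shares lay on the same side. In thinned cells a Tcf7 UMI was found in 6.97% of subcluster 5, in 1.44% of the macrophage-like subcluster 2, in 0.545% of subcluster 6 and in 0.324% of the plasmacytoid subcluster 0. The median depths of these 3 before thinning were 19798, 26945 and 13482 UMIs.

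With mouse 3 left out for having under 10 cells with a Tcf7 UMI, the test rested on 2 mice and 1 residual degree of freedom. It called 247 of 5453 genes (4.53%), 130 higher (2.38%) and 117 lower (2.15%), whereas DESeq2 called 11, the fit without the mouse block 2 and another draw of matched cells 76. The p-values of this split thus moved with the method. Xcl1 stood at 1879 and 5964 CPM with and 333 and 822 CPM without a Tcf7 UMI in mice 1 and 2, with an adjusted p of 8.99e-112 by edgeR, 0.04 in another draw and 0.115 without the block. Dapl1 stood at 364 and 270.1 against 0 and 3.13 CPM and passed in each of those fits (adjusted p = 0.00183 without the block). Slamf6 did too, at 102 and 111 against 12.02 and 9.38 CPM (adjusted p = 0.0198 without the block).

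Of 16 other memory and stem-like genes tested 11 rose with Tcf7 and none fell (median log2 difference 1.97), and 3 of the 11 also passed with DESeq2 (Xcl1, Slamf6 and Dapl1; 2 had no p there), 2 without the block and 8 in another draw. The 11 include Il7r at 62.1 and 42.02 against 9.35 and 9.38 CPM, which did not pass with DESeq2 (adjusted p = 0.976). Of 16 cytotoxic granule genes 7 fell and 1 rose (-0.70); of the 7, 1 (Gzme) passed with DESeq2, none without the block and 4 in another draw. Prf1 stood at 168 and 42.02 against 537 and 1066 CPM and Gzmb at 240.2 and 12.01 against 829.7 and 1331 CPM, lower with Tcf7 in both mice, and neither passed with DESeq2 (adjusted p = 0.831 and 0.988). Pdcd1 stood at 323 and 270.1 against 343 and 319 CPM and Tox at 262 and 141 against 289 and 203 CPM, and neither passed (adjusted p = 0.926 and 0.751 by edgeR). Of 26 G2 and M phase genes 6 fell with Tcf7 (median log2 difference -0.38), of which Hmgb2, a chromatin protein of dividing cells, also passed with DESeq2 and in another draw, and none passed without the block. Hmgb2 stood at 534 and 546 CPM with and 1072 and 1163 CPM without a Tcf7 UMI (-1.01 ± 0.15, adjusted p = 8.18e-09 by edgeR and 0.0386 by DESeq2). None of 34 S phase genes passed. Of 5 class II genes edgeR called 4 higher, none of them with DESeq2 or without the block and 1 in another draw. H2-Aa went in opposite directions in the 2 mice, at 313 and 57.03 CPM with and 103 and 100.01 CPM without a Tcf7 UMI. Cd74, the class II chaperone, stood at 1226 and 255 against 289 and 225 CPM, with mouse 2 nearly equal, and its part in the other differences was not tested.

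The split by Jaml, the receptor of the sort, found little. In 98, 31 and 13 cells per class, 2 of 6673 genes differed (0.0300%), 1 higher (0.0150%) and 1 lower (0.0150%), and 322 had an unadjusted p under 0.05. Without mouse 1, 2 or 3 the count was 12, 8 or 41. AY036118, a gene model, was higher (0.87 ± 0.13, adjusted p = 0.0166 by edgeR and 0.652 in another draw), and Hspa1a, a heat shock chaperone, was lower (-2.50 ± 0.33, adjusted p = 0.00372), at 7.02, 30.3 and 3.04 CPM with against 18.3, 163 and 179 CPM without a Jaml UMI. Hspa1a did not pass with DESeq2 (adjusted p = 1), and its reads could be shared with its close copy Hspa1b. DESeq2 called 1 gene and the fit without the mouse block called none. Pdcd1 differed by 0.04 ± 0.12, Havcr2 by -0.06 ± 0.16, Prf1 by 0.13 ± 0.17 and Gzmb by 0.47 ± 0.16 on the log2 scale (SE), with edgeR adjusted p of 1, 1, 0.998 and 0.778. In simulated counts of this design, 65% of genes changed 2-fold and 91% of genes changed 4-fold were recovered. Those counts had 1 fixed dispersion (spread beyond counting error), 0.02, for every gene and the same mean in each mouse. Recovery of genes that vary more was not tested.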

How the data were processed

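Cells were CD45-positive and JAML-positive, sorted from tumours, and per the labels' protocols the droplet libraries used the 5' v2 kit of 10x Genomics. Cell Ranger 3.1.0, Seurat 3.1.5 and the mm10 genome are named in the submitters' processing notes. The deposited matrix holds raw UMI counts of 15416 genes in 5976 cells. For each cell, a deposited table lists counts of UMIs and genes, the percent of mitochondrial UMIs, the hashtag and cluster numbers. Deposited cells have 1499 to 5999 genes and at most 5% mitochondrial UMIs. That annotation also has a species column that reads Human, although the genes and the labels are mouse. How doublets were treated was not given in the sources used here, and no doublet caller was run. The antibody-tag library was not analysed here. Each hashtag was taken as 1 mouse, and p-values cover these mice only. The edgeR p-values use a spread that is partly shared over genes, so they do not follow each gene's own spread between mice. In the Tcf7 split, Spp1 passed by edgeR (adjusted p = 0.0122) although mice 1 and 2 moved in opposite directions. It stood at 105 and 36.0 CPM with and 26.7 and 594 CPM without a Tcf7 UMI.

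The members and gene lists were chosen with earlier results of these data known. Counts of each mouse and class were added up with Python 3.11.15, numpy 2.4.6 and pandas 2.3.3, and classes of a mouse under 10 cells were left out. Within-subcluster tests used edgeR 4.0.16 (TMM, filterByExpr, quasi-likelihood, threshold 0.05) in R 4.3.3, with equal numbers of cells drawn in 5 classes of total UMIs per mouse. Both classes of a pair come from the same mouse, which is the pairing behind the block. DESeq2 1.42.0 was an alternative. In simulated counts the test recovered 64% and 93% of 2-fold and 4-fold changes for the Havcr2 design, and 37% and 85% for the Tcf7 design. The same fixed dispersion of 0.02 was used, with no difference between mice. Named genes were the 12 per direction and comparison with the largest mean log2 ratio and at least 50 CPM, leaving out receptor segments, mitochondrial, ribosomal protein and histone genes and unnamed models, up to 5 per direction in each test, list members as examples, and a fixed set around Jaml and exhaustion; those printed were picked from these. Promoters matched 53 of 67 such genes by symbol in RefSeq.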

Additional observations from a re-analysis of the deposited data

How the results depend on the processing

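Single genes named from these comparisons had been picked for large ratios or small adjusted p in the main setting, which favoured keeping the call. They kept their direction and their side of the rule or threshold in 942 of 997 alternative values, lost the call in 54 and turned in 1. That 1 was Siglech against all other cells, with a log2 ratio of 0.13 without cells that hold UMIs of other lineages, a setting that removes the plasmacytoid cells. Some settings could not remove a call made by the fold rule, namely 1.5-fold and no minimum. The 50 CPM minimum could not do so for genes named at that level. Leaving out 1 mouse could do so only through the minimum level. The 942 are therefore in part fixed by construction and are no measure of robustness. Counts moved with the minimum level and the fold. Over the 10 main results (the gene counts and the share), 61 alternative values were the same, meaning within 1.5-fold for counts. A further 20 were larger and 19 smaller. Higher and lower than all other cells (219 and 718) became 371 and 1537 with no minimum, 129 and 420 at 50 CPM and 65 and 264 without cells with UMIs of other lineages, and 484 were higher at 1.5-fold. Against subcluster 8 (24 and 251), 51 were higher with no minimum, 11 and 160 at 50 CPM, 80 and 422 at 1.5-fold, and 14 were higher with 5 CPM added. Against subclusters 1 and 7 (183 and 211), counts were 350 and 351 with no minimum, 108 and 118 at 50 CPM and 506 and 541 at 1.5-fold. With only the subcluster 5 cells that had no UMI of 5 division genes, a choice made after seeing the data, they were 92 and 87. Leaving out 1 mouse at a time asks the rule of the remaining mice only, so these counts tend to rise by construction. Such omissions gave 28 to 52 higher and 252 to 318 lower genes against subcluster 8, the 52 without mouse 1. Against subclusters 1 and 7 they gave 189 to 351 higher and 231 to 353 lower, the 351 and 353 also without mouse 1. The share of 7.44% ranged from 4.72 to 10.3% over the same omissions.

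Inside subcluster 5, leaving out the mouse as the replicate block took the Havcr2 split from 142 to 52 genes, the Tcf7 split from 247 to 2 and the Jaml split from 2 to 0. With DESeq2 the 3 counts were 56, 11 and 1. Without the filter on low counts the Havcr2 and Jaml splits gave 356 and 23, and another draw gave 76 for Tcf7. Unmatched cells gave 1 and a gate at 2 UMIs gave 10 for Jaml. Leaving out 1 mouse gave 141 to 322 for Havcr2 (322 without mouse 1) and 8 to 41 for Jaml (12, 8 and 41 without mouse 1, 2 and 3). For Tcf7 the gate at 2 UMIs and leaving out a mouse were not run, since too few mice remained. Where no construction is named, the cause was not tested. Depth limits mouse 3 most.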
